A study of Homo sapiens with 15 samples.

Results

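The genes described here are the vitamin D receptor VDR, the 3 retinoic acid receptors RARA, RARB and RARG, their partner receptor RXRA, the target enzymes CYP24A1 and DHRS3, the fatty acid receptors PPARA and PPARG, and the orphan receptor NR2F2. They were chosen by symbol, with the levels of these genes in the same tumours in view, and make up 10 of the 60649 human genes in the count table. All 10 passed the filter on low counts, which left 15435 human genes. Their differences between groups are therefore given as a description, and no p-value is printed for them.

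The study measured RNA by sequencing in 15 subcutaneous tumours that A549, an established line of human lung adenocarcinoma, formed in nude mice. In the stress group, restraint is labelled as 7 days before transplantation of the cells (n = 5), and in the post-stress group as 12 days after it (n = 5). The no-stress group received the same cells and no restraint (n = 5). The labels do not tell whether the day numbers are a length or a start, and they name no agent or further genotype. Every group rests on a single line in a host that lacks mature T cells, and human and mouse RNA were extracted together.

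VDR binds the active form of vitamin D, and the RARs bind retinoic acid. Each pairs with an RXR on direct repeats of a short DNA element, and the spacing of the repeat helps to decide which pair binds. CYP24A1, which breaks down active vitamin D, is a classic target of VDR, and RARB and DHRS3 are classic targets of retinoic acid in many cells.

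Of several promoters of RARB, the one shown was picked because a direct repeat of the kind bound by RAR and RXR lies in it. A promoter of its paralog RARA is shown beside it because none was found there. Both are RefSeq windows of GRCh38.p14 on the + strand, 250 bases before to 50 bases after a transcript start, and capitals mark the paired elements of the repeat.
RARB, chr3:25428013-25428312: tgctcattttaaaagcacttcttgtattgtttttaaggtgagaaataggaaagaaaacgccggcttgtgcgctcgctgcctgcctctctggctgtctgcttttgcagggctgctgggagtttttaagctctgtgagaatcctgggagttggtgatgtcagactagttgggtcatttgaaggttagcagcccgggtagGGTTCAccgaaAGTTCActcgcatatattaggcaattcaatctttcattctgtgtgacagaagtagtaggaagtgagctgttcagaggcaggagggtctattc
RARA, chr17:40308930-40309229: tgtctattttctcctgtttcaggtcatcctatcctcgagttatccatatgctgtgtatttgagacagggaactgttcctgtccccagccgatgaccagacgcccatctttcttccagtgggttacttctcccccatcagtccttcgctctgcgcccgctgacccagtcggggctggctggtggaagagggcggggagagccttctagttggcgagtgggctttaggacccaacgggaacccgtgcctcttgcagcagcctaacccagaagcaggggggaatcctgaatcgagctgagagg

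In the RARB window the repeat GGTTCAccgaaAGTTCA has 5 bases between its elements, a spacing called DR5, and its first base lies at position -53 from the start. The search took AGGTCA as an element, and likewise AGTTCA, and also GGGTCA, and lastly the element GGTTCA, with 1 to 5 bases between 2 elements of the same orientation, on both strands, and matches of different spacing could overlap. Among the 35116 windows of all genes, 0.0883% held a DR5, 0.131% a DR1 (1 base between the elements), 0.0399% a DR2, 0.074% a DR3 and 0.0854% a DR4. RefSeq windows matched 8 of the 10 genes, with 23 windows in all. The RARB window shown was the only one of the 23 with any of these repeats, so the other RARB windows held none. A match is a stretch of letters and not a measured binding site.

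Levels are CPM, the count of a gene scaled to a common total of human counts, adjusted between libraries by the trimmed mean of M-values. Levels of different genes are compared as CPM per kilobase of exon. On that scale CYP24A1 stood highest, at 43.2 ± 8.70 CPM per kilobase over all tumours (SD, n = 15). RARA had 12.8 ± 2.70 and RXRA 11.9 ± 2.43 CPM per kilobase over all tumours, a difference within their spread, but their order differed by group. No-stress tumours had RARA at 10.4 ± 0.971 and RXRA at 12.8 ± 1.29 CPM per kilobase (SD, n = 5). Stress tumours had RARA at 15.1 ± 1.80 and RXRA at 10.0 ± 1.93, and post-stress tumours 12.8 ± 2.69 and 12.8 ± 2.97 CPM per kilobase (SD, n = 5 each). Over all tumours NR2F2 followed at 5.76 ± 1.57 CPM per kilobase. RARG at 3.91 ± 0.667, PPARG at 3.86 ± 0.628, PPARA at 3.32 ± 0.641, DHRS3 at 3.15 ± 1.42 and RARB at 3.10 ± 1.14 CPM per kilobase came next, and each differed from its neighbour in this order by less than their SDs. VDR was the lowest of the 10 in this order, at 1.94 ± 0.706 CPM per kilobase. The order at the low end differed by group: in no-stress tumours DHRS3 stood lowest at 1.83 ± 1.12 and VDR had 2.82 ± 0.346 CPM per kilobase (SD, n = 5), while in stress tumours VDR stood lowest at 1.47 ± 0.316 CPM per kilobase (SD, n = 5).

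Human counts per library were between 12877165 and 15892705. Mouse genes took 21.0% ± 2.34 of the counts in stress, 17.6% ± 4.93 in post-stress and 22.6% ± 6.65 in no-stress tumours (SD, n = 5 each). Exact 2-sided permutation tests of the mouse share against the no-stress group gave p = 0.619 for stress and p = 0.206 for post-stress tumours, where the smallest possible p is 0.00794. The A549 label was set against 11 genes known from this line, which summed to between 14350 and 17326 CPM in stress, 16596 and 19172 CPM in post-stress and 15615 and 20855 CPM in no-stress tumours; 1 of them, KRT19, stayed below 1 CPM in every tumour. CDKN2A, which A549 cells lack, had 0 counts in no-stress tumours and at most 2.03 CPM in the others. Counts on human genes for 7 fibroblast markers summed to 105 to 168 CPM in stress, 62.4 to 217 CPM in post-stress and 98.2 to 193 CPM in no-stress tumours, most of it COL1A1, with 2 of the 7 below 1 CPM in every tumour. For 6 endothelial markers these sums were 9.67 to 16.3, 8.13 to 25.1 and 12.6 to 20.5 CPM in stress, post-stress and no-stress tumours, with 5 of the 6 below 1 CPM throughout. The 7 leukocyte markers summed to 2.79 to 10.9, 3.01 to 11.4 and 3.05 to 7.87 CPM in the same order of groups, with 4 of the 7 below 1 CPM throughout.

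In the stress tumours 4 of the 10 genes passed an adjusted p of 0.05 against no stress, RARA being higher and VDR, RARB and PPARA lower. Over all human genes 10.5% passed, 5.23% higher and 5.22% lower (edgeR's quasi-likelihood test with Benjamini-Hochberg adjustment). The stress and no-stress tumours did not overlap for 3 of the 10, VDR, RARA and RARB, and for 8.79% of all genes. In the post-stress tumours 2 of the 10, VDR and RARB, passed against no stress, both lower, where 0.842% of all genes did, 0.596% higher and 0.246% lower. The post-stress and no-stress tumours did not overlap for 3 of the 10, VDR, RARB and PPARA, and for 3.47% of all genes. Both comparisons use the same no-stress tumours. Between stress and post-stress tumours none of the 10 passed; 2 had an unadjusted p under 0.05, DESeq2 and limma-voom called 0 as well, and 0.0389% of all genes passed in edgeR. Because the genes were chosen from these contrasts, the counts describe them and carry no test.

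**Figure D1:**
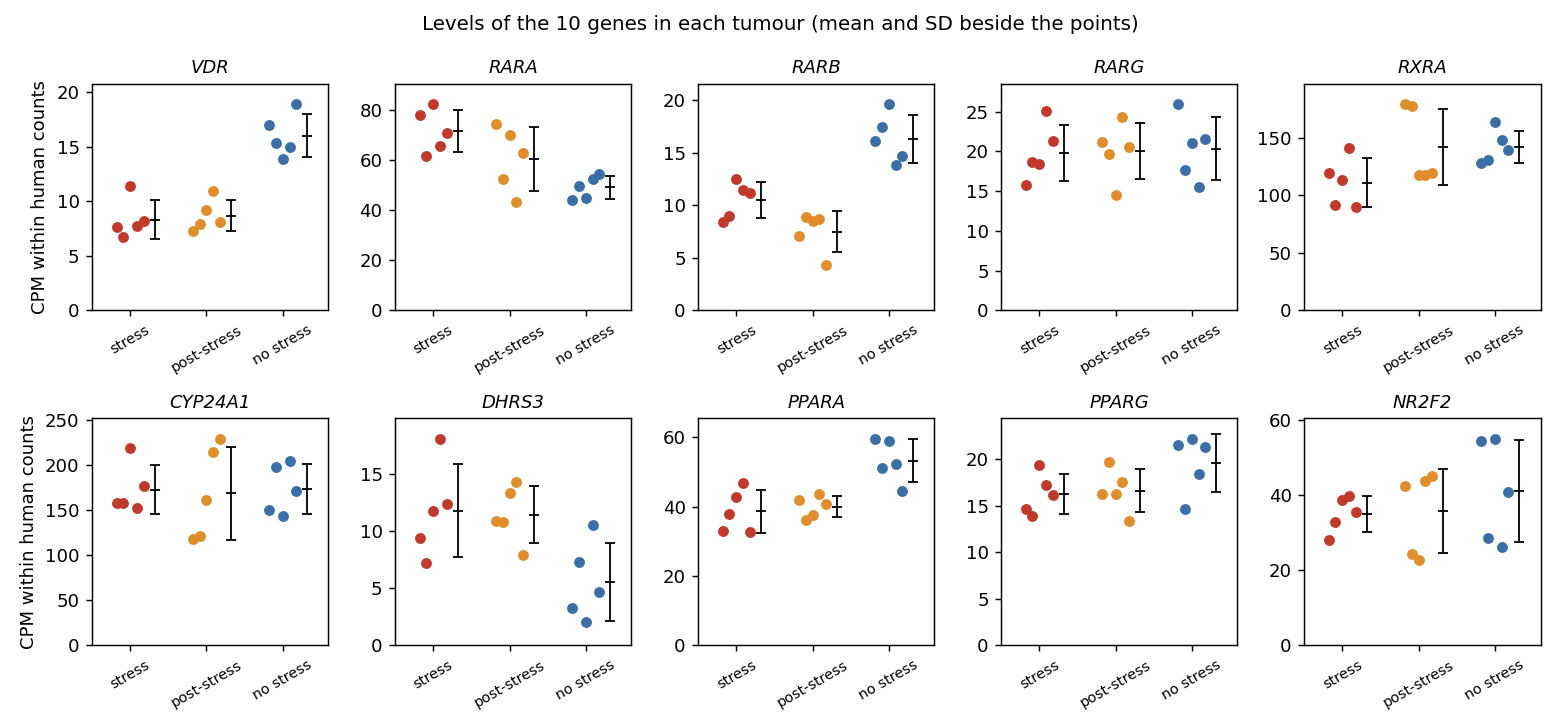
Level of each gene in CPM within human counts (linear axes from 0), with 1 point per tumour in the stress, post-stress and no-stress groups and the mean and SD (n = 5) beside the points. VDR and RARB lie lower in all restrained tumours than in any no-stress tumour, while CYP24A1 and RARG overlap across the groups.

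VDR, the receptor that carries the vitamin D signal to DNA, lies at chr12:47841537-47943048 on the - strand (coordinates of the 10 genes are from GENCODE 29 on GRCh38). Its levels were 7.60, 6.69, 11.4, 7.77 and 8.18 CPM in stress replicates 1 to 5. In post-stress replicates 1 to 5 they were 7.25, 7.87, 9.19, 10.9 and 8.13 CPM, against 16.998, 15.3, 13.9, 14.97 and 18.9 CPM in no-stress replicates 1 to 5. The highest restrained tumour, stress replicate 3, stayed below the lowest no-stress tumour, replicate 3, so that neither restrained group overlapped with the no-stress group. VDR averaged 8.33 ± 1.79 CPM in stress, 8.67 ± 1.44 CPM in post-stress and 16.0 ± 1.96 CPM in no-stress tumours (SD, n = 5 each). Its log2 fold change was -0.94 (SE 0.15) in stress and -0.88 (SE 0.15) in post-stress against no stress, or 0.521 and 0.542 of the no-stress level. Stress and post-stress tumours differed by -0.06 (SE 0.15) on the log2 scale. These levels rest on 96 to 169 counts in stress, 105 to 143 in post-stress and 209 to 254 in no-stress libraries. In bulk tumours, fewer cells that express a gene and less of its RNA per cell cannot be told apart.

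RARB, the retinoic acid receptor that carries the DR5 shown above, lies at chr3:25174332-25597932 on the + strand. Its levels were 8.43, 8.99, 12.5, 11.4 and 11.2 CPM in stress replicates 1 to 5. They were 7.11, 8.90, 8.56, 8.70 and 4.28 CPM in post-stress replicates 1 to 5, against 16.2, 17.4, 19.6, 13.8 and 14.7 CPM in no-stress replicates 1 to 5. All restrained tumours lay below all no-stress tumours, and post-stress replicate 5 was the lowest of the 15. The means were 10.5 ± 1.73 CPM in stress, 7.51 ± 1.94 CPM in post-stress and 16.4 ± 2.29 CPM in no-stress tumours (SD, n = 5 each). Against no stress the log2 fold change was -0.64 (SE 0.17) in stress and -1.12 (SE 0.18) in post-stress, or 0.643 and 0.459 of the no-stress level. Stress tumours stood 0.49 (SE 0.18) above post-stress tumours on the log2 scale, without passing the threshold. In the stress comparison RARB no longer passed when no-stress replicate 1, 2 or 3 or stress replicate 1 or 2 was left out, and its log2 fold change stayed between -0.70 and -0.56 over all settings tried. VDR and RARB were below the no-stress range in both restrained groups at once, a pattern that 0.868% of all genes showed.

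RARA, the most abundant of the RARs per exon length in every group, lies at chr17:40309192-40357643 on the + strand. Its levels were 77.8, 61.6, 82.2, 65.4 and 70.9 CPM in stress replicates 1 to 5. They were 74.4, 52.4, 69.9, 43.3 and 62.8 CPM in post-stress replicates 1 to 5, against 43.9, 49.6, 45.0, 52.4 and 54.5 CPM in no-stress replicates 1 to 5. Every stress tumour lay above every no-stress tumour, while the post-stress tumours ran from below to above the no-stress range. RARA averaged 71.6 ± 8.52 CPM in stress, 60.5 ± 12.7 CPM in post-stress and 49.1 ± 4.59 CPM in no-stress tumours (SD, n = 5 each). On the log2 scale RARA stood at 0.55 (SE 0.13) in stress and 0.30 (SE 0.13) in post-stress against no stress. Exons of the opposite strand overlap RARA: RARA-AS1 shares 556 bases, 11.8% of its exon length, and AC080112.3 shares 291 bases, 6.15%. Whether counting used strand is not given in the sources used here. The overlap may therefore have changed the RARA level, in a direction that was not tested.

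RARG, the RAR best known from skin and cartilage, lies at chr12:53210567-53232980 on the - strand. It averaged 19.8 ± 3.53 CPM in stress, 20.03 ± 3.54 CPM in post-stress and 20.3 ± 3.98 CPM in no-stress tumours (SD, n = 5 each), and the groups overlapped. Its lowest, median and highest levels were 15.7, 18.6 and 25.1 CPM in stress, 14.5, 20.6 and 24.3 CPM in post-stress, and 15.5, 21.0 and 25.9 CPM in no-stress tumours. The log2 fold change was -0.04 (SE 0.15) in stress and -0.02 (SE 0.15) in post-stress against no stress.

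Because RARA and RARB differed in opposite directions, the makeup of the RAR transcripts also differed. Per exon length RARB made up 13.0% ± 1.52 of the summed RAR level in stress, 11.03% ± 3.47 in post-stress and 23.6% ± 3.22 in no-stress tumours (SD, n = 5 each). The highest RARB share was 14.2% in stress and 14.5% in post-stress tumours, and the lowest in no-stress tumours was 20.2%, so that the groups did not overlap. RARA made up 69.2% ± 4.50 in stress, 67.7% ± 7.47 in post-stress and 55.3% ± 5.35 in no-stress tumours. RARG made up 17.8% ± 3.43 in stress, 21.2% ± 5.44 in post-stress and 21.1% ± 3.85 in no-stress tumours. The summed level of the 3 RARs was 21.8 ± 1.87, 18.7 ± 2.18 and 18.8 ± 0.664 CPM per kilobase in stress, post-stress and no-stress tumours. These shares come from the levels that chose the genes and are a description.

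**Figure D2:**
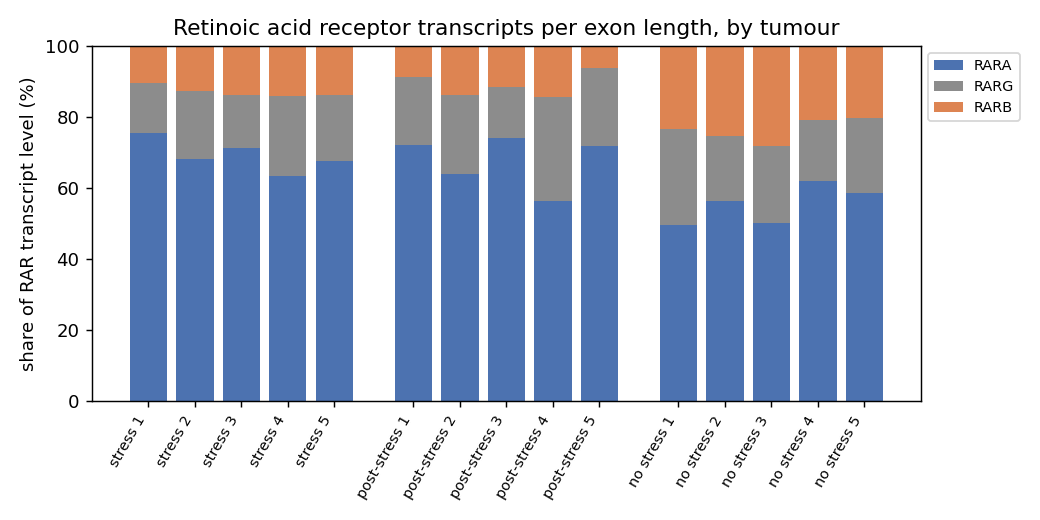
Share of each of the 3 RARs in their summed transcript level per exon length (percent, stacked to 100), with 1 bar per tumour grouped as stress, post-stress and no stress. The RARB part is at most 14.5% in restrained tumours and at least 20.2% in no-stress tumours.

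RXRA, the partner that VDR, the RARs and the PPARs share, lies at chr9:134317098-134440585 on the + strand. Its levels were 119, 91.3, 113, 141 and 90.0 CPM in stress replicates 1 to 5. They were 179, 177, 118, 117 and 119 CPM in post-stress replicates 1 to 5, against 128, 130.4, 163, 148 and 139 CPM in no-stress replicates 1 to 5. Post-stress replicates 1 and 2 lay above the no-stress range and the other 3 below it, while 4 of the 5 stress tumours lay below that range. Its log2 fold change was -0.35 (SE 0.15) in stress and 0.00 (SE 0.15) in post-stress against no stress, and neither passed the threshold.

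CYP24A1, the enzyme that starts the breakdown of active vitamin D, lies at chr20:54153449-54173973 on the - strand. Its levels were 158, 158, 219, 152 and 177 CPM in stress replicates 1 to 5. They were 119, 121, 161, 214 and 229 CPM in post-stress replicates 1 to 5, against 150.0, 198, 143, 205 and 172 CPM in no-stress replicates 1 to 5. The groups overlapped, and the post-stress group held both the lowest and the highest of the 15 tumours. CYP24A1 averaged 173 ± 27.4 CPM in stress, 169 ± 51.5 CPM in post-stress and 174 ± 27.6 CPM in no-stress tumours (SD, n = 5 each). The log2 fold change was -0.01 (SE 0.18) in stress and -0.04 (SE 0.18) in post-stress against no stress. With VDR lower and CYP24A1 near its no-stress level, the ratio of CYP24A1 counts to VDR counts was 20.97 ± 1.75 in stress, 19.4 ± 5.16 in post-stress and 10.97 ± 2.22 in no-stress tumours (SD, n = 5 each). The ratio ran from 19.2 to 23.6 in stress, 15.4 to 28.2 in post-stress and 8.82 to 13.7 in no-stress tumours, without overlap against no stress. It largely restates the VDR difference, comes from the levels that chose the genes and is a description.

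**Figure D3:**
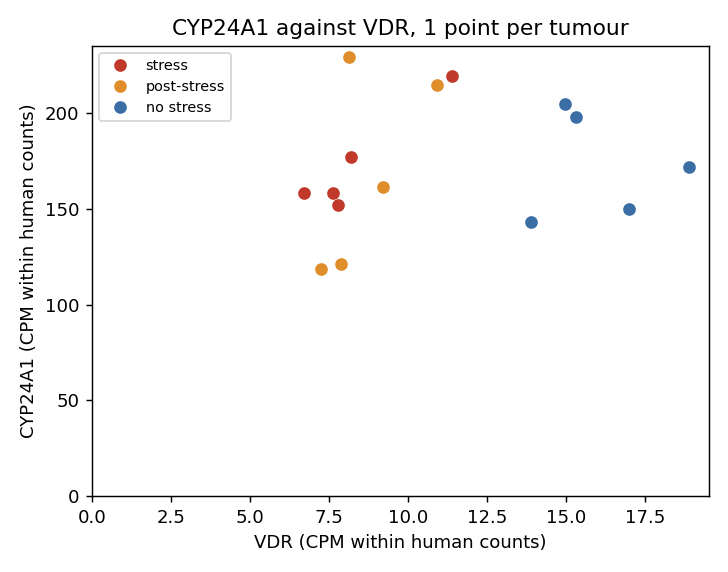
CYP24A1 level against VDR level, both in CPM within human counts on linear axes from 0, with 1 point per tumour coloured by group. The no-stress tumours lie to the right, at 13.9 CPM of VDR or more, at CYP24A1 levels that the restrained tumours also span.

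DHRS3, which turns retinal back into retinol and is induced by retinoic acid in many cells, lies at chr1:12567910-12617731 on the - strand. Its levels were 9.41, 7.18, 11.8, 18.05 and 12.3 CPM in stress replicates 1 to 5. They were 10.8, 10.8, 13.3, 14.3 and 7.91 CPM in post-stress replicates 1 to 5, against 3.23, 7.32, 2.04, 10.5 and 4.61 CPM in no-stress replicates 1 to 5. No-stress replicates 2 and 4 reached into the range of the restrained tumours, and the other no-stress tumours lay below it. DHRS3 averaged 11.8 ± 4.07 CPM in stress, 11.4 ± 2.49 CPM in post-stress and 5.55 ± 3.41 CPM in no-stress tumours (SD, n = 5 each). The log2 fold change was 1.09 (SE 0.36) in stress and 1.05 (SE 0.36) in post-stress against no stress, or 2.12 and 2.06 times the no-stress level. Of the 10 genes DHRS3 had the largest fold and also the largest SE against no stress in stress tumours, and it passed the threshold in neither comparison. It passed in the stress comparison with DESeq2, with limma-voom, with the replicate number as a block and without no-stress replicate 4. In the post-stress comparison it passed with DESeq2.

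PPARA, a fatty acid receptor that drives fat burning in liver, lies at chr22:46150521-46243756 on the + strand. Its levels were 32.98, 37.9, 42.7, 46.8 and 32.6 CPM in stress replicates 1 to 5. They were 41.9, 36.0, 37.6, 43.5 and 40.6 CPM in post-stress replicates 1 to 5, against 59.5, 51.2, 59.0, 52.2 and 44.5 CPM in no-stress replicates 1 to 5. Stress replicate 4 exceeded no-stress replicate 5, the only overlap in that comparison, and the post-stress tumours all lay below the no-stress range. The log2 fold change was -0.47 (SE 0.11) in stress and -0.42 (SE 0.11) in post-stress against no stress, or 0.724 and 0.749 of the no-stress level. The post-stress difference passed the threshold only with DESeq2, without the filter on low counts, or without no-stress replicate 5.

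PPARG, the receptor that drives fat cell formation, lies at chr3:12287368-12434356 on the + strand. It averaged 16.2 ± 2.18 CPM in stress, 16.6 ± 2.30 CPM in post-stress and 19.6 ± 3.13 CPM in no-stress tumours (SD, n = 5 each). The lowest, median and highest levels were 13.9, 16.2 and 19.4 CPM in stress, 13.3, 16.3 and 19.6 CPM in post-stress, and 14.6, 21.3 and 22.2 CPM in no-stress tumours. The groups overlapped, with log2 fold changes of -0.27 (SE 0.13) in stress and -0.24 (SE 0.13) in post-stress against no stress.

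NR2F2, also known as COUP-TFII, is an orphan receptor of vein and mesenchyme that can occupy the same direct repeats as RAR and RXR, and it lies at chr15:96325938-96340263 on the + strand. Its levels were 28.1, 32.8, 38.5, 39.8 and 35.3 CPM in stress replicates 1 to 5. They were 42.4, 24.4, 22.6, 43.8 and 45.1 CPM in post-stress replicates 1 to 5, against 54.4, 28.6, 54.9, 26.2 and 40.8 CPM in no-stress replicates 1 to 5. Tumours inside the post-stress and no-stress groups lay farther apart than the group means of 35.6 ± 11.2 and 41.0 ± 13.6 CPM (SD, n = 5 each), and the stress mean was 34.9 ± 4.69 CPM. Its log2 fold change was -0.23 (SE 0.24) in stress against no stress.

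The share of mouse counts varied with some of these genes. After group means were subtracted, Pearson's r with the mouse share over the 15 tumours was 0.566 for RARG, 0.494 for VDR, 0.396 for NR2F2 and -0.473 for RXRA, and between -0.293 and 0.345 for the other 6, values given as a description. With the mouse share as a covariate, the log2 fold changes in stress and post-stress against no stress were -0.90 and -0.77 for VDR, -0.66 and -1.20 for RARB, 0.52 and 0.23 for RARA, and 1.08 and 0.97 for DHRS3. The part of mouse reads in the human counts of these genes was not tested.

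**Figure D4:**
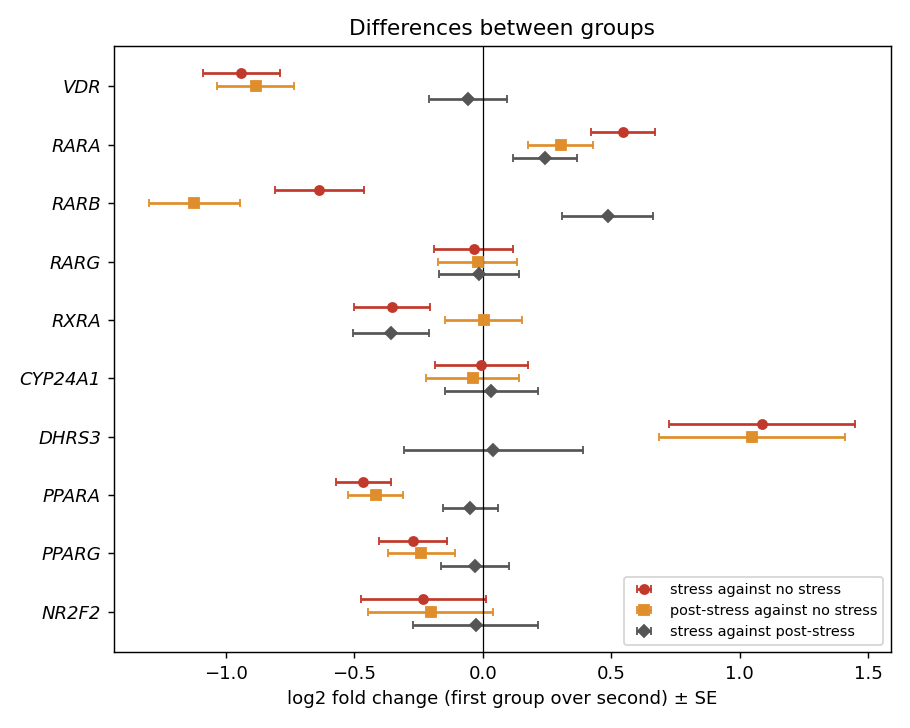
Log2 fold change with its SE for each gene, for each restrained group against no stress and for stress against post-stress, where a positive value means higher in the group named first. VDR, RARB and PPARA lie left of 0 and DHRS3 and RARA right of 0 in both comparisons with no stress.

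Levels of the genes around these receptors were followed in 7 lists chosen with earlier results of these data known, 183 genes of which 123 were tested. In the stress tumours 16 of the 123 passed against no stress and in the post-stress tumours 3, while 10.5% and 0.842% of all genes did. Between stress and post-stress tumours 0 passed in edgeR, 14 had an unadjusted p under 0.05, and DESeq2 called 2 and limma-voom 0.

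Of 28 other nuclear receptors tested, 5 rose and 1 fell in stress against no stress, with a median log2 fold change of 0.05 beside -0.01 over all genes. In post-stress against no stress 1 passed, 10 had an unadjusted p under 0.05, and DESeq2 called 6 and limma-voom 1. NR1D1, a repressor of the circadian clock, averaged 47.2 ± 11.2 CPM in stress, 30.9 ± 8.72 CPM in post-stress and 12.8 ± 2.74 CPM in no-stress tumours (SD, n = 5 each). It rose 3.69-fold in stress (edgeR adjusted p = 0.00036) and 2.42-fold in post-stress (edgeR adjusted p = 0.00924). NR1D1 lost its post-stress call with the mouse share as a covariate (edgeR adjusted p = 0.0584). The same held without no-stress replicates 1 and 5 together (edgeR adjusted p = 0.0575). Its relative NR1D2 rose 1.85-fold in stress, to 72.3 ± 14.4 CPM against 39.1 ± 9.29 CPM in no-stress tumours (edgeR adjusted p = 0.00645). The immediate early receptors NR4A3 and NR4A2 rose 2.82-fold and 2.80-fold in stress (edgeR adjusted p = 0.0239 and 0.0339), and of 15 fits that left out 1 tumour, 3 ended the call of NR4A3 and 8 that of NR4A2. NR4A3 also lost its call with limma-voom, and both did without the filter on low counts. NR4A3 and NR4A2 were also 2.92-fold and 2.53-fold higher in post-stress than in no-stress tumours, without passing (edgeR adjusted p = 0.0696 and 0.137). NR1H2, a sterol receptor, rose 1.19-fold in stress (edgeR adjusted p = 0.0463), a call lost in 11 of the 15 fits that left out 1 tumour. The gene that fell, named after its values were seen, was the thyroid hormone receptor THRA, at 64.4 ± 8.95 CPM in stress and 80.9 ± 12.3 CPM in no-stress tumours (edgeR adjusted p = 0.0481). The groups overlapped for THRA, its adjusted p lay near the threshold, and its call was not followed in the fits that left out 1 tumour. NR3C1, the glucocorticoid receptor, had 247 ± 23.9 CPM in stress and 208 ± 8.29 CPM in no-stress tumours and did not pass (edgeR adjusted p = 0.0678). Its stress tumours all lay above its no-stress tumours, and for 8.79% of all genes these groups did not overlap in either direction.

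Of 18 receptor co-regulators tested, 1 rose in stress and none passed in post-stress against no stress, where 4 had an unadjusted p under 0.05 and DESeq2 called 1 and limma-voom 0. It was NCOA3, a co-activator of nuclear receptors, at 179.95 ± 32.3 CPM in stress and 124 ± 6.77 CPM in no-stress tumours, 1.45-fold higher (edgeR adjusted p = 0.00555).

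Of 5 vitamin D supply and breakdown genes tested, DHCR7 fell in stress. This enzyme takes the precursor of vitamin D into cholesterol synthesis, and it had 43.5 ± 7.94 CPM in stress and 64.5 ± 12.2 CPM in no-stress tumours (edgeR adjusted p = 0.0364, lost in 7 of 15 fits that left out 1 tumour). None of the 12 vitamin D targets tested beside CYP24A1 passed in either comparison with no stress. At an unadjusted p under 0.05 there were 5 in stress and 4 in post-stress; DESeq2 called 2 and 1, and limma-voom 0 in each. The median log2 fold change of these 12 was 0.40 in stress and 0.26 in post-stress against no stress, beside -0.01 over all genes in each. SPP1, a secreted matrix protein, had 1064 ± 169 CPM in stress and 1129.7 ± 226 CPM in no-stress tumours, and IGFBP3, which binds insulin-like growth factors, had 798 ± 213 CPM in stress and 417 ± 191 CPM in no-stress tumours (edgeR adjusted p = 0.776 and 0.159).

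Of 21 retinoid transport and metabolism genes tested, 2 fell in stress and none passed in post-stress against no stress, where 6 had an unadjusted p under 0.05 and DESeq2 called 1 and limma-voom 0. RDH11, which reduces retinal, had 78.1 ± 9.16 CPM in stress and 103 ± 15.3 CPM in no-stress tumours (edgeR adjusted p = 0.0252). CYP26B1, which breaks down retinoic acid and is itself a retinoic acid target in many cells, had 61.6 ± 6.11 CPM in stress and 79.7 ± 10.4 CPM in no-stress tumours (edgeR adjusted p = 0.038). Leaving out 1 tumour ended the call of RDH11 in 5 and of CYP26B1 in 7 of 15 fits.

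Of 15 retinoic acid targets tested beside RARB and DHRS3, 2 rose in stress and none passed in post-stress against no stress, where 1 had an unadjusted p under 0.05 and DESeq2 and limma-voom each called 1. GPRC5A, a retinoic acid induced receptor of lung epithelium, had 232 ± 50.8 CPM in stress and 109 ± 38.3 CPM in no-stress tumours, 2.13-fold higher (edgeR adjusted p = 0.00823). PLAAT4, also known as RARRES3, had 37.5 ± 12.4 CPM in stress and 18.3 ± 3.51 CPM in no-stress tumours, 2.04-fold higher (edgeR adjusted p = 0.0198). Its call was lost without no-stress replicate 1 or 3 and without the filter on low counts.

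Of 24 PPAR targets tested, 3 rose and 1 fell in stress and 2 rose in post-stress against no stress, with medians of -0.08 and -0.03 on the log2 scale. The lipase inhibitor ANGPTL4 had 199 ± 47.7 CPM in stress, 204 ± 142 CPM in post-stress and 36.4 ± 10.3 CPM in no-stress tumours (edgeR adjusted p = 0.00595 and 0.0224 against no stress). The lipid droplet coat protein PLIN2 had 309.6 ± 63.9 CPM in stress, 289.99 ± 119 CPM in post-stress and 125 ± 24.9 CPM in no-stress tumours (edgeR adjusted p = 0.00935 and 0.0493 against no stress). PLIN1, a droplet protein of fat cells, had 3.89 ± 0.977 CPM in stress and 1.91 ± 0.677 CPM in no-stress tumours (edgeR adjusted p = 0.0216, lost without no-stress replicate 1 or 3 or stress replicate 1). Of the other 3 fat cell markers, ADIPOQ and LEP had no human count in any tumour and FABP4 had at most 2 counts, or 0.135 CPM. ETFDH, a mitochondrial enzyme of fat burning, fell to 13.7 ± 0.651 CPM in stress, against 17.5 ± 2.21 CPM in no-stress tumours (edgeR adjusted p = 0.0458, lost in 11 of 15 fits that left out 1 tumour). In post-stress tumours ANGPTL4 lost its call in 3 and PLIN2 in 11 of these fits.

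**Figure D5:**
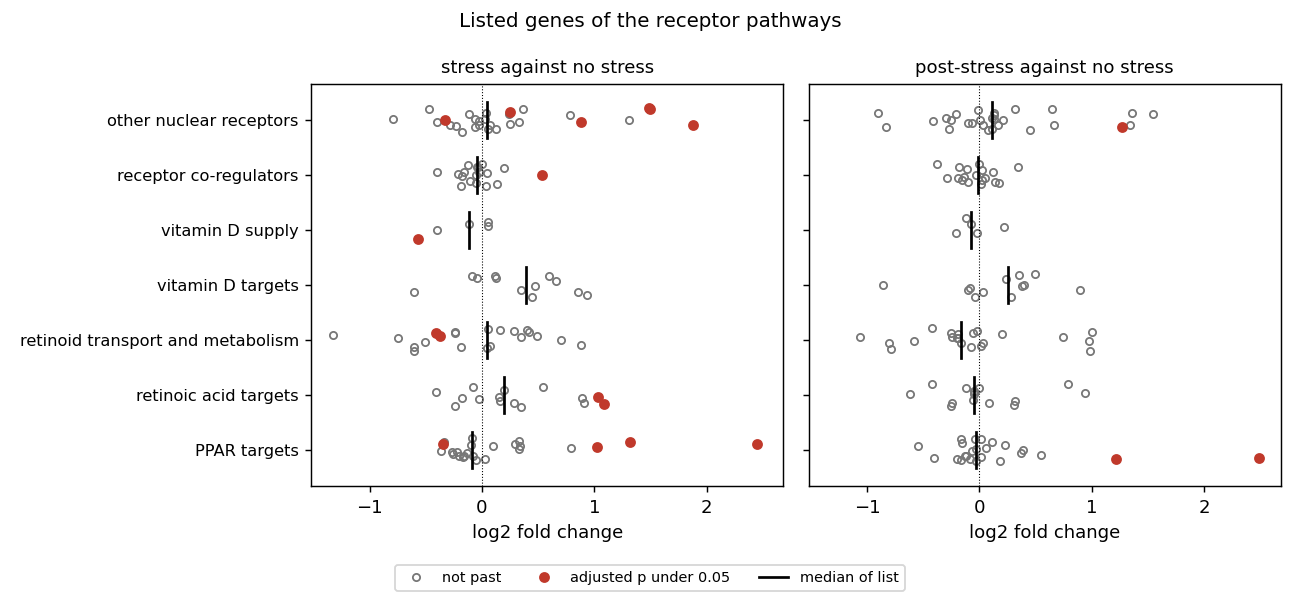
Log2 fold change of each tested gene of the 7 lists in stress (left) and post-stress (right) against no stress, with filled points at an edgeR adjusted p under 0.05 and a vertical bar at the median of each list. Filled points number 16 in stress and 3 in post-stress, and the vitamin D targets have none.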

How the data were processed

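RNA from 15 tumours was analysed, grouped by the sample titles. The count table names its columns Control, Pre and Post with a number; they were read as no stress, stress and post-stress through the timing of restraint in the labels' protocols, so every group value rests on that reading. Per the labels' protocols, total RNA was isolated with TRIzol, and a rapid RNA-seq preparation kit from Abclonal was used. The deposited values are raw counts per gene for human and mouse genes. Per the submitters' processing notes, the authors used Trimmomatic 0.39, HISAT2 2.2.1, featureCounts 2.0.6 and the builds hg38 and mm10, and also named DESeq2 and edgeR. Strandedness, the annotation release and how reads were assigned to a species were not given in the sources used here. Total counts per library were 16729091 to 19680449.

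Human counts were filtered with filterByExpr, which kept 15435 genes with 99.8% of human counts, scaled by TMM and fitted together for all 15 libraries with edgeR's quasi-likelihood test (edgeR 4.0.16, limma 3.58.1, R 4.3.3). Adjusted p-values are Benjamini-Hochberg values over all genes tested, with a threshold of 0.05. The SE is the log2 fold change divided by the square root of F. Symbols matched 60463 of 60649 identifiers. The edgeR p-values weigh a difference between groups against the spread between tumours within groups, estimated over all 15 libraries. The procedure was tested on simulated data. No 2 replicates differed as little as sampling noise.

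The 10 genes, the lists and the rule for naming genes were chosen with earlier results of these data known. The rule takes all 10 genes, up to 4 genes per list and comparison past the threshold by smallest p, up to 2 of the highest CPM not past it, and, for VDR, CYP24A1, RARB and DHRS3, the 4 genes most alike within groups. Alternatives were limma-voom, DESeq2's Wald test (1.42.0) or its size factors, library totals without TMM, no filter or 1 CPM in 5 libraries, fits of the compared groups alone, a covariate of mouse share, the replicate number as a block, and leaving out each tumour. Promoters were read with Python 3.11.15. VDR and CYP24A1 had no promoter entry.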

Additional observations from a re-analysis of the deposited data

How the results depend on the processing

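The levels and differences of the 10 genes kept their direction wherever a call was made, over all settings run. VDR and PPARA in stress and RARB in post-stress passed against no stress in every setting. No-stress replicates 1 and 5 had the highest mouse shares of all tumours, at 30.2% and 28.9997%, against at most 24.6% in the others. They also had the highest VDR levels, at 16.998 and 18.9 CPM. Leaving both out together, chosen after seeing the data, ended the calls of RARA (log2 fold change 0.55) and RARB (-0.69) in stress. The main fit, with more no-stress tumours, gave 0.55 and -0.64. Leaving both out also ended the call of VDR in post-stress (-0.76, and -0.88 in the main fit). It left 546 genes, 2 of the 10 genes and 6 listed genes called in stress, and 32, 1 and 1 in post-stress, against no stress. With the mouse share as a covariate, the calls of RARA and RARB in stress and of VDR in post-stress held. Whether mouse RNA lay behind their loss was not tested.

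In stress against no stress 1613 of all genes were called. Leaving out 1 tumour gave 661 to 1834, with 661 and 864 when no-stress replicate 1 or 3 was out, and 782, 1043 and 1072 when stress replicate 1, 3 or 5 was out. Of the 10 genes 3 to 5 were called, and of the listed genes 6 to 23, with 6 and 7 without no-stress replicates 1 and 3 and 7, 10 and 10 without stress replicates 1, 3 and 5. In post-stress against no stress 130 genes were called, DESeq2 called 504, only the 2 groups 49 and the mouse share as a covariate 38. Leaving out 1 tumour gave 37 to 144, with 37, 83 and 45 without no-stress replicates 1, 2 and 3 and 54 and 51 without post-stress replicates 1 and 2. Of the 10 genes DESeq2 called 4, and 2 to 3 were called without 1 tumour. Of the listed genes DESeq2 called 12, only the 2 groups 1 and the covariate 0. Without 1 tumour these were 1 to 5, with 1 without no-stress replicate 1 or 3 or post-stress replicate 2 and 5 without post-stress replicate 5. In stress against post-stress 6 genes were called, DESeq2 called 203, no filter 36, only the 2 groups 1 and the covariate 0. Leaving out 1 tumour gave 0 to 189, with 189 when stress replicate 4 and 13 when no-stress replicate 2 was out. DESeq2 called 2 listed genes there, and leaving out 1 tumour gave 0 to 2 listed genes and 0 of the 10. The cause of these shifts was not tested.

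No pairing of tumours by replicate number was seen in expression after group means were subtracted. Same-numbered tumours correlated at -0.191 to 0.124 and other pairs from different groups at -0.219 to 0.204. Of the tumours, 1 of 15 correlated best with its own number. A batch shared by number was not tested further. With the number as a replicate block, 990 genes and 10 listed genes were called in stress and 57 genes in post-stress against no stress. Between stress and post-stress the block left 0 genes called. With the block DHRS3 passed in stress. PLAAT4, NR4A2, NR1H2, CYP26B1 and ETFDH then lost their calls in stress (edgeR adjusted p = 0.0567, 0.0755, 0.0796, 0.0612 and 0.06415). ANGPTL4 and PLIN2 lost theirs in post-stress (edgeR adjusted p = 0.1003 and 0.1235). VDR rests on 96 to 254 counts per library, RARB on 60 to 317 and DHRS3 on 33 to 267. Such counts limit how small a difference can be seen.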

Other observations

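Within groups, with the group means subtracted, some of the 10 genes varied together over the 15 tumours, which share libraries and scaling, so the values are a description. Of 45 pairs the highest Pearson's r was that of RARG with NR2F2 (0.805, Spearman's rho 0.732), followed by RARB with PPARG (0.619, rho 0.718). VDR and its target CYP24A1 had r = 0.552 (rho 0.586). RXRA and CYP24A1 had the lowest r, -0.611 (rho -0.539).

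Likeness within groups was searched over 12656 genes, so that the highest values are maxima of a wide search; the 95th percentile of r over all of them was 0.435 for VDR, 0.536 for CYP24A1, 0.426 for DHRS3 and 0.48 for RARB. The genes most like VDR were TNRC6A (r = 0.802, rho 0.743), CASP6 (0.774, rho 0.754), MIRLET7BHG (0.765, rho 0.786) and SPICE1 (0.752, rho 0.775). For CYP24A1 they were SAP30L-AS1 (r = 0.878, rho 0.854), ELOVL7 (0.868, rho 0.854), CNOT4 (0.863, rho 0.836) and PISD (0.846, rho 0.861). For DHRS3 they were DCDC1 (r = 0.887, rho 0.893), VIL1 (0.863, rho 0.811), AGAP3 (0.851, rho 0.775) and EN2 (0.839, rho 0.686). For RARB they were ENSG00000253666 (r = 0.851, rho 0.829), RNF19A (0.834, rho 0.689), POU2AF3 (0.817, rho 0.746) and SPAG1 (0.807, rho 0.789). Of these 4, ENSG00000253666 at chr8:100475675-100501148, RNF19A at chr8:100257060-100336218 and SPAG1 at chr8:100157906-100259278 are neighbours on a chromosome other than that of RARB. Likeness within groups need not go with a like difference between groups. DHRS3 had log2 fold changes of 1.09 in stress and 1.05 in post-stress against no stress. In the same order DCDC1 had -1.63 and -1.35, VIL1 -0.99 and -0.24, EN2 -0.25 and -0.29, and AGAP3 0.19 and 0.24.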
